A study of Mus musculus with 12 samples.

Results

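This report describes 30 genes whose products carry amino acid and growth factor signals to mTORC1, the kinase complex that sets cell growth at the lysosome, in the kidneys of an X-linked Alport mouse model whose males were fed fisetin or a control diet. The genes were chosen by name from known complexes and not by a rule on their values, although earlier results of these data were known. All 30 were found among the 55487 genes of the deposited table and passed the filter on low counts, which kept 17890 genes. The series holds 12 bulk RNA sequencing libraries of whole kidney, 6 from mice fed fisetin, a plant flavonol, at 500 ppm of the diet and 6 from mice fed a control diet. All mice were males on the B6 background with the X-linked Alport model (the titles name Col4a5, a gene of the type IV collagen of the glomerular basement membrane), taken at 30 weeks of age, so both groups carry the disease and no healthy kidney was used here. The 2 batches named in the labels each held 3 libraries of each diet. The genotype field reads HET for all libraries, although males hold a single X chromosome, and no allele status was used. Nothing in the labels states that each library came from its own mouse, so p-values measure the spread between these libraries.

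mTORC1 is switched on at the lysosomal surface when 2 kinds of small GTPase are in their active state. Rheb activates the kinase directly and is held off by the TSC complex (Tsc1, Tsc2, Tbc1d7), on which growth factor and energy signals converge. The Rag GTPases bring mTORC1 to the lysosome, where the Ragulator complex anchors them. GATOR1 turns the Rags off, GATOR2 restrains GATOR1, KICSTOR holds GATOR1 at the lysosome, and sestrins bind GATOR2 when leucine is short. In kidney tubule cells, loss of the TSC complex or of folliculin is known to give cysts and tumours.

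Total counts were 18638748 to 22396857 per control library and 16310214 to 24451821 per fisetin library, and the members' own counts ran from 32 to 4448. Counting error was largest for the members with the fewest counts. Their lowest counts in a library were 32 (Rragb), 135 (Tbc1d7), 136 (Kptn) and 194 (Nprl2). Markers of kidney cells were present: summed proximal tubule markers ran from 7847 to 13735 CPM (counts scaled to a common library size with TMM factors) in controls and from 5425 to 13076 with fisetin. The medians of this sum were 10746 CPM in controls and 7631 CPM with fisetin. Of the 10 proximal tubule markers, 0 had a positive fold change and 2 had an unadjusted p under 0.05. Of 5 thick limb markers, 0 had a positive fold change and 0 an unadjusted p under 0.05. Markers of adrenal tissue (1.21 to 1.504 CPM in controls, 0.981 to 2.27 with fisetin, Cyp11b2 at 0 in every library) and of muscle (0.336 to 1.66 against 0.109 to 1.04 CPM) were near 0. The sum of 11 immune markers was 261 to 465 CPM in controls and 264 to 655 with fisetin, with all 11 fold changes positive and 3 of them at an unadjusted p under 0.05. The sum of 7 principal cell markers, of the collecting duct, was 352 to 521 CPM in controls and 167 to 363 with fisetin, with all 7 negative at an unadjusted p under 0.05. In whole kidney, fewer cells of a type and less RNA per cell cannot be told apart. Libraries control 1 and fisetin 6 lay toward the other diet on the immune markers (mean log2 CPM 4.44 in control 1 and 3.03 in fisetin 6), and fisetin 5 was lowest in 5 of the 7 members described most fully below.

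No member passed the test of diet. edgeR's quasi-likelihood test with batch as a term and Benjamini-Hochberg adjustment over all genes called 0 of the 30 members and 0 of 17890 genes (0.0%) at an adjusted p under 0.05, and the smallest adjusted p was 0.274 among members and 0.145 among all genes. At an unadjusted p under 0.05, 2 members had higher counts with fisetin (Rragd and Sesn3), where 8.23% of all genes did, and 5 had lower counts (Sesn2, Lamtor1, Lamtor2, Lamtor4 and Sec13), where 6.34% did. The 2 higher members are no larger a share than that of all genes, and the 5 lower ones are a larger share, a difference that was not tested. The fold change was positive in 12 members and negative in 18, with a median of -0.02 on the log2 scale, while 50.2% of all genes were positive and their median was 0.00. These signs depend on the scaling: 16 members were positive with total count scaling and 20 on log2(TPM + 1), scales on which the median of all genes was 0.05 higher. TPM is scaled to a fixed total. Of that total, the genes Rn7s1 and Rn7s2 together held 41.4% to 53.1% in controls and 40.3% to 49.2% with fisetin. Within each diet their share was highest in control 1 and fisetin 6. What part this share had in the signs on log2(TPM + 1) was not tested. Among all genes at an unadjusted p under 0.05, 1845 were higher and 845 lower with total count scaling, and 1044 were higher and 255 lower on log2(TPM + 1), where Sesn2 was the only such member.

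The differences were small. For 29 of the 30 members the 95% interval of the fold change lay within 0.5 of 0 on the log2 scale, and Sesn2 was the exception (-0.66 to -0.17). The members also varied little between libraries once batch and diet were fitted. Their median biological coefficient of variation was 0.0942 (range 0.0658 to 0.194) against 0.131 over all genes tested. All genes were not matched to the members for abundance, so what part abundance had in this difference was not tested.

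**Figure D1:**
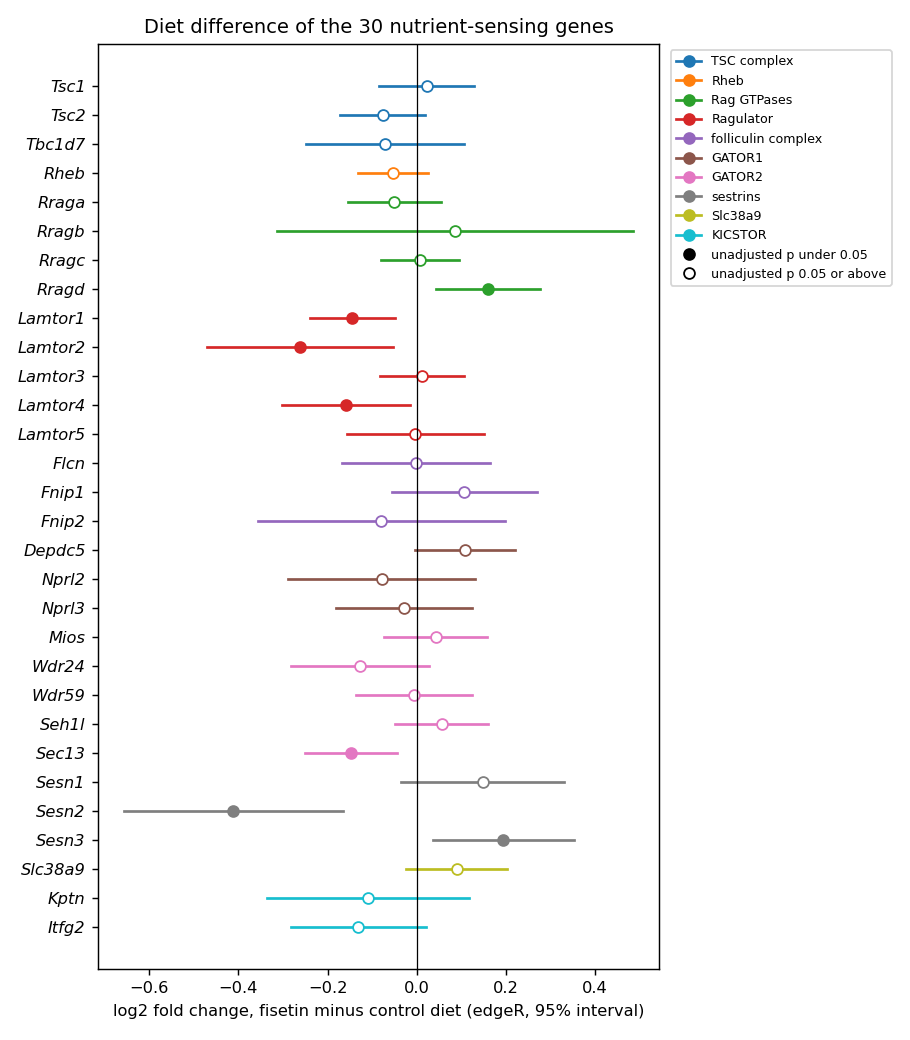
Log2 fold change of each of the 30 genes, fisetin minus control diet, with its 95% interval from edgeR (n = 6 libraries per diet), coloured by complex; filled points have an unadjusted p under 0.05. The 7 filled points are Rragd and Sesn3 to the right of 0 and Lamtor1, Lamtor2, Lamtor4, Sec13 and Sesn2 to the left.

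Levels were compared between genes per length, as FPKM in the deposited table. Lamtor5 (median over the 12 libraries 95.8 FPKM), Lamtor2 (89.4), Lamtor1 (62.4) and Lamtor4 (51.2) were the most abundant of the 30, so by median 4 of the 5 Ragulator subunits stood above every other member. Lamtor5 and Lamtor2 overlapped between libraries, and so did Lamtor4 and the next gene, Rheb (43.9), while Sec13 (43.2) overlapped Rheb and not Lamtor4. Lamtor3, the remaining Ragulator subunit, was at 31.1 FPKM, close to its GTPase partners Rraga (31.9) and Rragc (30.9).

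Tsc2 (38.4 FPKM) exceeded Tsc1 (14.0) and Tbc1d7 (9.92), and the GATOR1 subunits Nprl3, Nprl2 and Depdc5 stood at 20.6, 14.0 and 13.2 FPKM. The GATOR1 order depends on the lengths used. The length implied by counts and FPKM ran from 854 to 1183 bases for Nprl3 and from 1836 to 2896 for Depdc5. In CPM, not per length, the control median was 31.6 for Depdc5 and 21.5 for Nprl3. Among GATOR2 genes, Sec13 and Seh1l (19.3), which also serve in the nuclear pore and, for Sec13, in vesicle coats, stood above Wdr24 (9.34), Mios (6.41) and Wdr59 (6.01). Rragb was the least abundant member, at 1.84 FPKM. Its 12 libraries, between 1.29 and 2.86 FPKM, did not overlap those of the next gene, Wdr59, between 5.21 and 6.45.

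**Figure D2:**
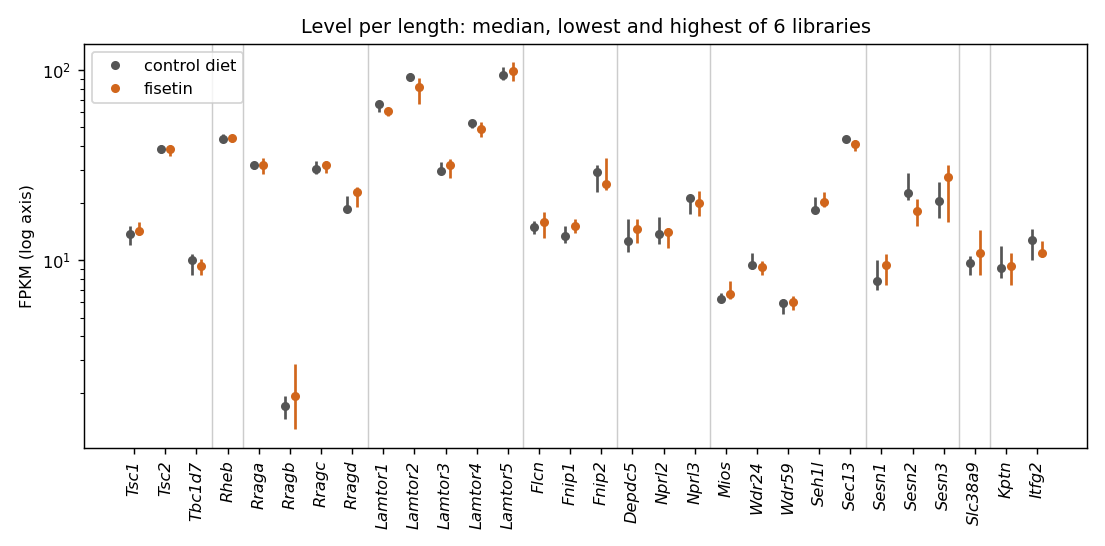
FPKM of the 30 genes on a log axis: points are the median of 6 libraries of a diet and lines run from the lowest to the highest library, with genes ordered by complex and vertical lines between complexes. Lamtor5 and Lamtor2 are highest and Rragb is lowest, and the diets overlap for every gene but Sec13. For Sec13 the highest fisetin library (43.09 FPKM) lies just below the lowest control (43.21 FPKM).

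Ragulator showed 4 negative fold changes of 5 (3 with total count scaling or on log2(TPM + 1), where Lamtor5 was positive), with a median of -0.14 on the log2 scale, and 3 of its subunits had an unadjusted p under 0.05. The complex is a scaffold: Lamtor1 carries the lipid anchor that fixes it to the lysosomal membrane, and the other 4 subunits form the platform that binds the Rag GTPases. Because these 3 subunits had fold changes of the same sign, the stretches around their start sites are shown, from 250 bases before to 50 bases after each (RefSeq on GRCm38.p6, 300 bases, 5′ to 3′ on the gene's strand), with the letters CACGTG in capitals. CACGTG is the E-box core to which TFEB, TFE3 and other factors of the helix-loop-helix kind can bind. It reads the same on both strands, and TFEB is itself held in the cytosol by mTORC1 through the Rags. The stretch of Lamtor1 lies at chr7:101905587-101905886 on the plus strand, that of Lamtor2 at chr3:88552902-88553201 on the minus strand and that of Lamtor4 at chr5:138255232-138255531 on the plus strand.
Lamtor1: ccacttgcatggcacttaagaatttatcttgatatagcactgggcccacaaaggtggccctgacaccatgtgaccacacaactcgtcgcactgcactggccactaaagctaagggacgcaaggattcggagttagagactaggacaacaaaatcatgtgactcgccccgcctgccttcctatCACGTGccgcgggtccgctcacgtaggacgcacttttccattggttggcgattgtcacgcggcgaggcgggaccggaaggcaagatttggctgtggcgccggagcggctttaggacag
Lamtor2: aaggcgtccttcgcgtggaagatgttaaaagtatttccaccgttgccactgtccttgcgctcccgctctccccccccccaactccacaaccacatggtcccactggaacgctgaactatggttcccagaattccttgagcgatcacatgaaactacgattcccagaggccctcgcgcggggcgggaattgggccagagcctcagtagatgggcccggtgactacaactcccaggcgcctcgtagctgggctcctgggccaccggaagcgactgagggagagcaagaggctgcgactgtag
Lamtor4: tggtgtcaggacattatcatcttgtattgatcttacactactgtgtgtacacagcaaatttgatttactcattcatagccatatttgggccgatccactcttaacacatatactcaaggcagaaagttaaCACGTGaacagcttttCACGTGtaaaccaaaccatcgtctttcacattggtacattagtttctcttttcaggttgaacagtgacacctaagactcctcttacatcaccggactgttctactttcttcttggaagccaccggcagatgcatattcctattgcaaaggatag

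Lamtor1 holds the letters once, beginning 68 bases before the start (position -68), and Lamtor4 holds them at -120 and -104. Lamtor2 has no match, which says only that these letters are not in this window. Of 28 promoters of 27 members matched in the RefSeq table, 7 hold CACGTG (Fnip1, Lamtor1, Lamtor4, Rheb, Rragb, Rragc and Tbc1d7), against 7.15% of all 32851 promoters of this length. The amino acid response element written TGATGNAA, of the kind that ATF4 binds, was searched on both strands and is held by 1 member promoter, that of Lamtor4, against 3.97% of all. A match is a description of letters, and none of these members passed the test of diet.

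Lamtor1 (chromosome 7, 101905904 to 101926675, plus strand) was at 53.6 (lowest), 55.3 (median) and 58.6 (highest) CPM in the 6 control libraries and at 47.6, 50.8 and 53.1 CPM in the 6 fisetin libraries. Every fisetin library lay below every control library. Lamtor1 was the only member whose diets did not overlap in CPM, where 0.425% of all genes had non-overlapping diets with fisetin lower and 0.47% with fisetin higher. Its log2 fold change was -0.14 ± 0.04 (SE), with an adjusted p of 0.281 by edgeR. The value was -0.15 within batch 1 and -0.13 within batch 2. The gene overlaps Lrrc51 on the opposite strand, with which it shares 17.4% of its 50-base stretches, and how the counting used strand is not given in the sources used here, so reads of these genes may not be told apart.

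Lamtor2 (chromosome 3, 88549819 to 88553074, minus strand) was at 31.0, 32.5 and 35.2 CPM in controls (lowest, median, highest) and at 22.0, 27.2 and 33.5 CPM with fisetin. In 5 of 6 fisetin libraries it was below the lowest control, and fisetin 6 lay among the controls. The log2 fold change was -0.26 ± 0.10 (SE; adjusted p = 0.303 by edgeR), with -0.28 in batch 1 and -0.24 in batch 2. Lamtor4 (chromosome 5, 138255482 to 138259398, plus strand) was at 29.4, 30.3 and 34.0 CPM in controls and at 24.6, 27.6 and 31.7 CPM with fisetin, and 4 of 6 fisetin libraries lay below the lowest control. Its log2 fold change was -0.16 ± 0.07 (SE; adjusted p = 0.318 by edgeR), with -0.17 and -0.14 in the batches.

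Lamtor3 and Lamtor5 had fold changes near 0. Lamtor3 had a log2 fold change of 0.01 (adjusted p = 0.908 by edgeR) and Lamtor5 of -0.00 (adjusted p = 0.986), with intervals of -0.08 to 0.11 and -0.16 to 0.15. The difference in response between these and Lamtor1, Lamtor2 and Lamtor4 was not tested. Lamtor5 shares 14.5% of its 50-base stretches with the processed pseudogene Gm15190, and Lamtor3 shares 5.46% with Gm5900, so their counts are less certain.

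**Figure D3:**
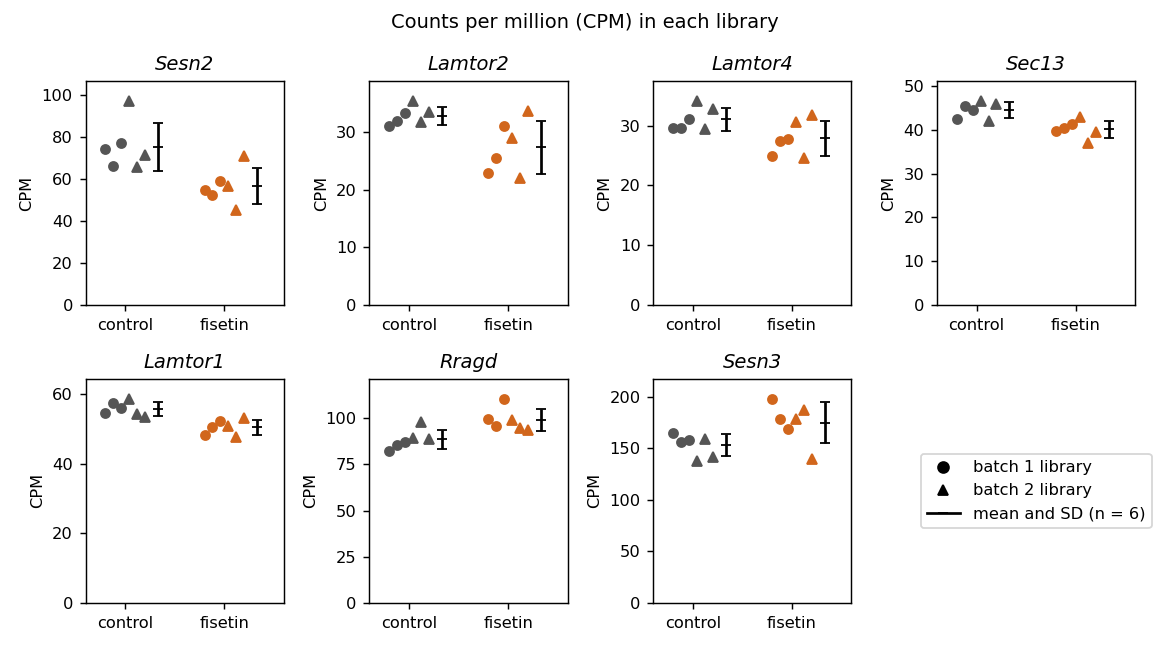
CPM of the 7 genes with an unadjusted p under 0.05 in each of the 12 libraries; circles are batch 1, triangles batch 2, and bars give the mean and SD of 6 libraries. Lamtor1 does not overlap between the diets, and in Lamtor2, Lamtor4, Sesn2 and Sesn3 the fisetin 6 library lies with the controls.

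Sestrins, stress-induced proteins that bind GATOR2 and keep mTORC1 off, had fold changes of both signs, and none passed the test. Sesn2, a leucine-binding sestrin (chromosome 4, 132492032 to 132510501, minus strand), had the largest difference of the 30 members. It was at 66.0, 72.9 and 97.0 CPM in controls (lowest, median, highest) and at 45.4, 55.9 and 71.2 CPM with fisetin. In 5 of 6 fisetin libraries it was below the lowest control, and fisetin 6 (71.2 CPM) was among the controls. The log2 fold change was -0.41 ± 0.11 (SE; 0.752-fold, adjusted p = 0.274 by edgeR). Within the batches it was -0.39 and -0.43. DESeq2 gave the member's adjusted p as 0.0529, the smallest it gave to any member, while calling 0.855% of all genes.

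Sesn3 (chromosome 9, 14275067 to 14333101, plus strand) and Sesn1 (chromosome 10, 41809935 to 41908424, plus strand) had positive fold changes. Sesn3, a sestrin known as a target of FoxO factors, was at 137.9, 157.4 and 165.1 CPM in controls and at 139.8, 178.1 and 197.6 CPM with fisetin. In 5 of 6 fisetin libraries it was above the highest control, and fisetin 6 lay with the controls. The log2 fold change of Sesn3 was 0.19 ± 0.07 (SE; adjusted p = 0.303 by edgeR). Sesn1, a p53-responsive sestrin, was at 20.1, 22.0 and 28.0 CPM in controls and at 21.9, 25.3 and 27.5 CPM with fisetin, so the diets overlapped. Sesn1 had a log2 fold change of 0.15 ± 0.08 (SE; adjusted p = 0.402 by edgeR).

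Sesn2 is known to be induced through NRF2 and ATF4. The stretch around its start, shown for that reason (chr4:132510407-132510706, minus strand, GRCm38.p6, RefSeq, 5′ to 3′), has the antioxidant response element letters TGACNNNGC in capitals, in which N is any base, on the gene's own strand and beginning at position -36.
Sesn2: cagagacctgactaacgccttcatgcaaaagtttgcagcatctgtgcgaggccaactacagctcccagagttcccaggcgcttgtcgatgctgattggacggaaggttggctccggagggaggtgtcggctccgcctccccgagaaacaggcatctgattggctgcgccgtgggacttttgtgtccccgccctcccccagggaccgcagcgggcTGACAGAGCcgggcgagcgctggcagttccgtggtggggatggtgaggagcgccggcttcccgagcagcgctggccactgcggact

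TGACNNNGC, searched on both strands, is held by 6 of the 28 member promoters (Fnip2, Kptn, Lamtor5, Rheb, Sesn2 and Tbc1d7) and by 12.4% of all promoters. Of 14 genes that induce sestrins or mark their inducers, 3 had an unadjusted p under 0.05 and a positive fold change and 1 a negative one, with a median of 0.05. Ccng1, a p53 target, was at 130.6 to 176.8 CPM in controls and 196.6 to 225.8 CPM with fisetin, with no overlap, and a log2 fold change of 0.42 ± 0.07 (SE; adjusted p = 0.145 by edgeR). DESeq2 called it, with an adjusted p of 0.000188. Nfe2l2, which encodes NRF2, had a log2 fold change of 0.15 ± 0.05 (SE; adjusted p = 0.281 by edgeR), Cdkn1a, a p53 target that stops the cell cycle, of 0.42 ± 0.17 (adjusted p = 0.310), and Psat1, an ATF4 target of serine synthesis, of -0.27 ± 0.11 (adjusted p = 0.324).

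Among the Rag GTPases, Rragd stood out by value and the other 3 did not. RagA or RagB pairs with RagC or RagD, and RagD is known to be the Rag gene most responsive to TFEB and TFE3. Rragd (chromosome 4, 32983037 to 33022180, plus strand) was at 82.4, 88.1 and 97.7 CPM in controls and at 93.6, 97.4 and 110.4 CPM with fisetin. All 6 fisetin libraries were above the control mean of 88.5 CPM and 3 were above the highest control. Rragd had a log2 fold change of 0.16 ± 0.05 (SE; adjusted p = 0.286 by edgeR). The value was 0.26 in batch 1 (unadjusted p = 0.00655 by edgeR) and 0.06 in batch 2 (unadjusted p = 0.429 by edgeR). The interaction of diet with batch was -0.20 ± 0.10 on the log2 scale (SE), with an unadjusted p of 0.0550 and an adjusted p of 1.00 by edgeR.

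Rraga, the abundant Rag of the first pair, was at 40.2, 42.0 and 45.1 CPM in controls and at 37.7, 40.8 and 43.2 CPM with fisetin, and its log2 fold change was -0.05 ± 0.05 (SE; adjusted p = 0.603 by edgeR). Rragc was at 63.4, 71.2 and 73.7 CPM in controls and at 67.8, 70.7 and 72.3 CPM with fisetin. The diets overlapped in both genes. Rragc had a log2 fold change of 0.01 ± 0.04 (SE; adjusted p = 0.936 by edgeR), with an interval of -0.08 to 0.09. Rragc overlaps 4930535I16Rik on the opposite strand (6.54% of its 50-base stretches are shared). Rragb, at the lowest counts of the 30, had 0.09 ± 0.18 (SE).

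Ratios within a library set partners side by side, without a test. The ratio of Rragd to Rragc, alternative partners of RagA and RagB, was 0.606 to 0.656 (median 0.627) in FPKM in controls and 0.666 to 0.785 (median 0.708) with fisetin, so all 6 fisetin libraries lay above all controls. The log2 difference was 0.18, against a pooled SD of 0.08. With CPM in place of FPKM the ratios were 1.18 to 1.38 in controls and 1.31 to 1.62 with fisetin, so the diets overlapped and only 3 fisetin libraries stood above the highest control, while the log2 difference was 0.15. The non-overlap of this ratio therefore depends on the unit.

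The ratio of Sesn2 to Sesn1 had a median of 2.84 (2.36 to 4.09) in controls and 1.93 (1.45 to 2.84) with fisetin, and 5 of 6 fisetin libraries were below the lowest control. Its log2 difference was -0.57 (SD 0.32). The ratio of Sesn3 to Sesn2 had a median of 0.959 (0.582 to 1.23) in controls and 1.53 (0.759 to 1.89) with fisetin, with a log2 difference of 0.64 (SD 0.43). The third ratio, of Sesn3 to Sesn1, differed by 0.07 (SD 0.26), less than its spread.

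The ratio of Fnip2 to Fnip1, partners of folliculin, had a median of 2.13 (1.87 to 2.34) in controls and 1.68 (1.51 to 2.16) with fisetin, a log2 difference of -0.26 (SD 0.17). The ratio of Tsc2 to Tsc1 had a median of 2.82 (2.67 to 3.10) in controls and 2.64 (2.43 to 2.95) with fisetin, a log2 difference of -0.10 (SD 0.09). That of Rraga to Rragb had a median of 18.3 (16.4 to 21.9) and 16.1 (12.1 to 25.3), a log2 difference of -0.16 (SD 0.29), and its spread exceeds its difference.

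**Figure D4:**
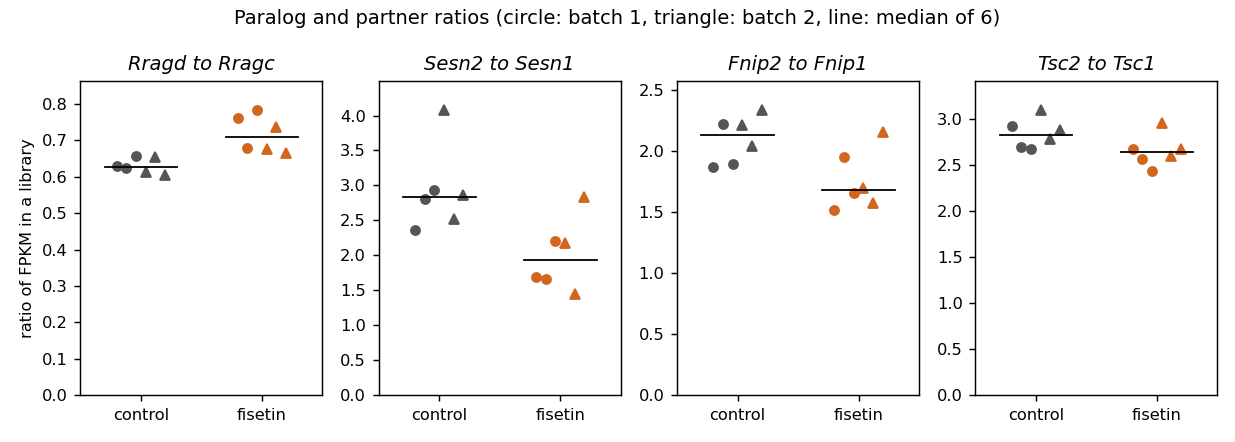
Ratio of FPKM between partner genes in each of the 12 libraries, with circles for batch 1, triangles for batch 2 and a line at the median of 6. Only Rragd to Rragc separates the diets in FPKM, and it does not with CPM.

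In the TSC complex and Rheb, no gene had an unadjusted p under 0.05. Tsc1, a scaffold of the complex, was at 70.4, 74.3 and 76.3 CPM in controls and at 68.0, 74.5 and 82.6 CPM with fisetin, and its log2 fold change was 0.02 ± 0.05 (SE; adjusted p = 0.837 by edgeR). Tsc2, the subunit that acts on Rheb, was at 119.7, 127.4 and 132.3 CPM in controls and at 112.2, 119.2 and 127.8 CPM with fisetin, with a log2 fold change of -0.08 ± 0.04 (SE; adjusted p = 0.405 by edgeR). Rheb was at 70.4, 73.1 and 74.1 CPM in controls and at 67.2, 69.7 and 73.4 CPM with fisetin, with a log2 fold change of -0.05 ± 0.04 (SE; adjusted p = 0.471 by edgeR). The diets overlapped in these 3 genes, and in Tbc1d7 (-0.07 on the log2 scale). On log2(TPM + 1), Tsc2 (0.03), Rheb (0.02) and Rraga (0.03) were positive. Tsc2 overlaps Pkd1 on the opposite strand (6.33% of its 50-base stretches are shared).

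In the folliculin complex, which acts on RagC and RagD, no gene had an unadjusted p under 0.05. Flcn was at 40.9, 45.5 and 47.1 CPM in controls and at 35.2, 44.8 and 55.5 CPM with fisetin, so the fisetin libraries spread on both sides of the controls. Its log2 fold change was -0.00 ± 0.08 (SE; adjusted p = 0.997 by edgeR). Fnip1 had 0.11 and Fnip2 -0.08, and for Fnip2 the fisetin 6 library, at 201.9 CPM, lay above every other library. Leaving out 1 library moved the log2 fold change of Fnip2 between -0.02 and -0.21, and without fisetin 6 it was -0.21, at an unadjusted p under 0.05.

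GATOR1, GATOR2 and KICSTOR showed one gene at an unadjusted p under 0.05. Sec13 (chromosome 6, 113728062 to 113740743, minus strand) was at 41.9, 45.0 and 46.4 CPM in controls and at 37.0, 40.0 and 42.9 CPM with fisetin, and 5 of 6 fisetin libraries were below the lowest control. Sec13 had a log2 fold change of -0.15 ± 0.05 (SE; adjusted p = 0.281 by edgeR), with -0.13 and -0.16 in the batches. Seh1l, its partner in GATOR2 and in the nuclear pore, had a log2 fold change of 0.06.

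Depdc5, the GATOR1 subunit whose loss is known in focal epilepsy, was at 28.8, 31.6 and 34.2 CPM in controls and at 31.9, 33.8 and 36.3 CPM with fisetin, with a log2 fold change of 0.11 ± 0.05 (SE; adjusted p = 0.349 by edgeR). Mios, a GATOR2 subunit, was at 20.3, 21.6 and 22.0 CPM in controls and at 20.6, 21.9 and 24.1 CPM with fisetin (0.04 ± 0.05 on the log2 scale, adjusted p = 0.695 by edgeR). Kptn, of KICSTOR, was at 9.40, 10.3 and 12.03 CPM in controls and at 7.90, 9.55 and 11.6 CPM with fisetin (-0.11 ± 0.10, adjusted p = 0.600 by edgeR). The diets overlapped in all 3.

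The other subunits had log2 fold changes of -0.13 (Itfg2, of KICSTOR, and Wdr24, of GATOR2), -0.08 (Nprl2), -0.03 (Nprl3) and -0.01 (Wdr59), all with intervals that cross 0. Nprl3 overlaps Mpg on the opposite strand (15.7% of its 50-base stretches are shared), so its counts and FPKM are less certain. Slc38a9, the lysosomal arginine carrier that signals to the Rags, was at 31.1, 32.96 and 35.5 CPM in controls and at 32.8, 34.9 and 37.6 CPM with fisetin, with a log2 fold change of 0.09 ± 0.05 (SE; adjusted p = 0.407 by edgeR).

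The deposited FPKM values, which use each library's own transcript lengths and no TMM factor, gave the same signs for the 7 members with an unadjusted p under 0.05. In FPKM the diets overlapped for Lamtor1, and Sec13 was the only member for which they did not, at 43.21 to 43.96 in controls and 37.36 to 43.09 with fisetin. The log2 difference of mean log2 FPKM was -0.37 for Sesn2 (pooled SD 0.16), -0.23 for Lamtor2 (SD 0.13), -0.11 for Lamtor1 (SD 0.05), -0.11 for Lamtor4 (SD 0.08) and -0.09 for Sec13 (SD 0.05). It was 0.23 for Rragd (SD 0.12) and 0.27 for Sesn3 (SD 0.30). For Sesn3 the difference was less than the spread, and the length implied by its counts and FPKM ran from 5744 to 8216 bases between libraries.

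No member passed the test of batch. At an unadjusted p under 0.05, edgeR gave 0 members for the batch term (3.38% of all genes did), and the smallest adjusted p was 0.892, for Flcn. The interaction of diet with batch gave 1 member, Seh1l (adjusted p = 1.00; 2.1% of all genes), and its log2 fold change was 0.15 in batch 1 and -0.03 in batch 2. Of the 30 members, 21 had the same sign in both batches. The share of all genes with the same sign in both batches was not counted.

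The fold changes of all genes differed with the makeup of their transcripts. The 14721 protein-coding genes tested were cut into 5 classes of like size by GC content and by length of the longest transcript. The class of lowest GC content (31.0% to 43.7%) had a median log2 fold change of 0.06, and that of the highest (55.5% to 74.2%) had -0.05. The class of up to 2000 bases had a median of -0.06 and the longest class 0.03. At the ends of the range, all 5 members in the class of highest GC content (Lamtor2, Lamtor4, Wdr24, Sesn2 and Kptn) had negative fold changes, with a median of -0.16, and so had all 8 in the shortest class, with a median of -0.13. The 3 members in the class of lowest GC content had a median of 0.06 and the 7 in the longest class 0.09. Between the ends the members' medians did not keep the order of all genes: from the lowest GC class to the highest they were 0.06, 0.06, -0.03, -0.05 and -0.16, with the class next to the lowest slightly above it, and from the shortest class to the longest -0.13, 0.01, -0.01, -0.01 and 0.09.

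Across the 30 genes, Spearman's rho of fold change with GC content was -0.658 and with length 0.600. Over all genes these were -0.220 and 0.151. These are descriptions across genes of the same libraries, which are not independent replicates. Sesn2 has a GC content of 58.7%, Lamtor2 of 57.0% and Lamtor4 of 56.9%, and the longest transcript of Lamtor2 has only 668 bases. The longest transcript need not be the one expressed. The control median of the length implied by counts and FPKM was 841 bases for Lamtor1, whose longest transcript has 1936. It was 1009 against 3531 for Nprl3, and 3174 against 3475 for Sesn2. Implied lengths were not used for the classes or offsets. With offsets for GC content and length in each library, an alternative added after seeing the data, Sesn2 had a log2 fold change of -0.36, Lamtor2 of -0.18, Lamtor1 and Sec13 of -0.11, Rragd of 0.14 and Sesn3 of 0.15, each still at an unadjusted p under 0.05. Lamtor4 had -0.07 and no longer reached it, Rheb had -0.08 and did, and 0 members passed the adjusted threshold. Of 17863 genes in the fit with offsets, 1267 were higher and 976 lower at an unadjusted p under 0.05. Without offsets these were 1473 and 1135 of 17890 genes.

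**Figure D5:**
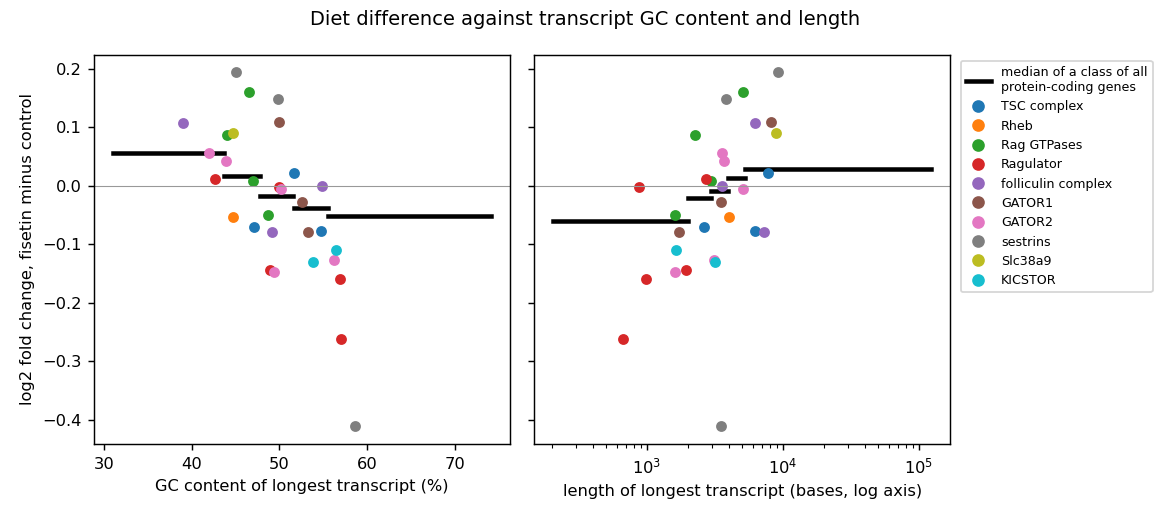
Log2 fold change of the 30 genes, coloured by complex, against GC content and length (log axis) of the longest transcript; black lines are medians of 5 classes of all protein-coding genes. The lines step from 0.06 to -0.05 with GC content and from -0.06 to 0.03 with length, and the members spread more widely, with those of highest GC content and the shortest all below 0.

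All 11 immune markers had positive fold changes, so the members were also read with the immune score (mean log2 CPM of these markers) as a term in the fit. Sesn2 then had a log2 fold change of -0.31, Rragd of 0.18 and Sec13 of -0.13, still at an unadjusted p under 0.05. Lamtor1 had -0.09, Lamtor2 -0.14, Lamtor4 -0.09 and Sesn3 0.08, and these 4 no longer reached it. The smallest adjusted p of a member was 0.849 in that fit. Among all genes, 558 were higher and 480 lower at an unadjusted p under 0.05 with the score, against 1473 and 1135 without it. Fewer genes reached the threshold across the whole table, not only among the members. The score ran from 2.85 to 4.44 in controls and from 3.03 to 4.94 with fisetin, so score and diet are not separate terms. The part that the principal cell, proximal tubule or thick limb markers had in any member's difference was not tested.

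When each library was left out in turn, Rragd, Lamtor1, Lamtor2, Sec13 and Sesn2 had an unadjusted p under 0.05 in all 12 fits, and no member passed the adjusted threshold in any. Sesn3 no longer had one without fisetin 1, fisetin 4 or fisetin 5, and Lamtor4 without fisetin 1, fisetin 5, control 3, control 4 or control 6. These fits share most of their libraries with each other and with the fit that picked these members. How many of all genes kept an unadjusted p under 0.05 in all 12 fits was not counted. In a single fit, 864 to 2402 of all genes were higher and 704 to 2234 lower at that threshold. limma-voom with quality weights, which gives less weight to unlike libraries, called 6 members (Rragd, Lamtor1, Lamtor2, Sec13, Sesn2 and Sesn3), and it called 13.9% of all genes. Leaving out control 1 and fisetin 6 together called 6 members (Lamtor2, Sesn2, Lamtor1, Sesn3, Sesn1 and Fnip2) and 2254 genes. That pair was chosen after it was known that leaving out fisetin 6 raised the number of genes called to 70 and that leaving out either raised the numbers at an unadjusted p under 0.05. Leaving out control 1 alone called 0 genes.

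The genes around the members were described from lists of the same pathway. Among 12 genes of mTORC1 and mTORC2 subunits and of the chaperones that assemble them, no gene passed the adjusted test; 5 were positive and 7 negative (median -0.03), and the 2 with an unadjusted p under 0.05 were Akt1s1, the PRAS40 subunit that restrains mTORC1 (-0.18 ± 0.08, adjusted p = 0.325 by edgeR), and Tti1, which assists the folding of the kinase (-0.12 ± 0.05, adjusted p = 0.328). Of 23 further upstream genes, 6 were positive and 17 negative (median -0.05). Prkab1, a subunit of the energy sensor AMPK, was at 53.6 to 59.8 CPM in controls and 45.8 to 53.1 CPM with fisetin without overlap (-0.16 ± 0.05, adjusted p = 0.276 by edgeR).

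Among 22 subunits of the vacuolar ATPase, which acidifies the lysosome and binds Ragulator, 17 were negative and 5 positive (median -0.10), 3 of them with an unadjusted p under 0.05 and none adjusted. Atp6v0b had -0.16 ± 0.06 (adjusted p = 0.299 by edgeR), Atp6v0e2 -0.32 ± 0.12 (adjusted p = 0.303) and Atp6v0d1 -0.16 ± 0.07 (adjusted p = 0.337). Of 9 amino acid carriers, 7 were positive and 2 negative (median 0.10) and 0 had an unadjusted p under 0.05; the smallest p were those of Slc7a11, the cystine carrier (0.60 ± 0.32, adjusted p = 0.386 by edgeR), and Slc36a1 (-0.20 ± 0.12, adjusted p = 0.415).

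The TFEB arm, the lysosomal gene program that mTORC1 restrains, had 8 positive and 10 negative fold changes among 18 genes (median -0.02), and 3 with an unadjusted p under 0.05, all positive. Hexa had 0.25 ± 0.09 (adjusted p = 0.300 by edgeR), Ctsb 0.16 ± 0.06 (adjusted p = 0.303) and Gpnmb, also a macrophage gene, 1.12 ± 0.42 (adjusted p = 0.303). With the immune score in the fit, of all genes of these lists named here with an unadjusted p under 0.05, only Prkab1 and Ccng1 still reached it; Akt1s1, Tti1, Atp6v0b, Atp6v0e2, Atp6v0d1, Hexa, Ctsb, Gpnmb, Nfe2l2, Cdkn1a and Psat1 did not. Among all genes, too, fewer reached an unadjusted p under 0.05 with the score (558 higher and 480 lower). No gene of these lists passed the adjusted test by edgeR. The balance of signs in a list moved with the fit. On log2(TPM + 1), 14 of the 23 further upstream genes, 8 of the 12 mTOR complex and chaperone genes, 11 of the 18 TFEB arm genes and 9 of the 22 ATPase subunits were positive, and with the immune score 12 of the 22 ATPase subunits (median 0.02), 13 of the 18 TFEB arm genes, 4 of the 9 carriers and 6 of the 14 sestrin-inducer genes were. With GC and length offsets, 19 of the 22 ATPase subunits were negative.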

How the data were processed

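Whole kidney RNA from 12 libraries was sequenced (KAPA mRNA HyperPrep kit, per the labels' protocols). Per the submitters' processing notes, fastp, STAR, featureCounts and DESeq2 were used, and GRCm38 (mm10) was the build. Versions, counting settings and use of strand are not stated in what was read here. Per the file headers, each library has estimated counts, TPM and FPKM. The estimated counts deposited by the authors are not scaled for depth. Because 13.91% of those above 0 were fractional (tolerance 1e-06), counts were rounded before testing. The deposited TPM values are scaled by the authors to a fixed total, and the deposited FPKM values for length and depth. All 36 value columns were matched to samples by name, and 0 belonged to no sample.

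Of 55487 identifiers, 55141 matched GENCODE M21 on GRCm38. Tests used edgeR 4.0.16 under R 4.3.3 (TMM, filterByExpr by diet with a minimum count of 10, robust glmQLFit with batch and diet, two-sided glmQLFTest), adjusted by Benjamini-Hochberg over 17890 genes at a threshold of 0.05. Standard errors come from the fold change and F statistic. DESeq2 1.42.0 and limma 3.58.1 were alternatives, and log2(TPM + 1) was fitted with limma. The edgeR test of diet was tried on simulated counts, which held no unlike libraries and no differences by GC content or immune markers. Compared in 66 pairs over 16472 genes, libraries differed by 6.84 to 100.6 times counting noise, so none was a copy.

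The members and lists were chosen with earlier results of these data known. Values are given for members with an unadjusted p under 0.05 and for 15 fixed members, and for the 2 genes of smallest p in each pathway list, except 1 withheld result that is not reported here; genes named beyond these were chosen after their values were seen. Other marker sums, in CPM, were, in controls and then with fisetin, 2321 to 4877 and 2346 to 4276 (thick limb), 837 to 1469 and 472 to 1625 (distal tubule), 72.5 to 119.7 and 55.4 to 132.1 (intercalated cells), 582 to 693 and 467 to 735 (podocytes), 356 to 418 and 334 to 461 (endothelium), 1183 to 1789 and 1086 to 1650 (stroma), 5.07 to 105.4 and 2.85 to 112.6 (adipocytes), and 17.9 to 70.7 and 15.6 to 140.6 (erythroid cells).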

Additional observations from a re-analysis of the deposited data

Results flagged for a closer look

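In each diet, the highest or lowest of the 6 libraries was compared with its nearest neighbour, as a share of the group's range (Dixon's rule, critical value 0.625). Of 60 groups of members' CPM, 5 were flagged, where chance flags about 1 in 20. Sesn2 in control 4 was at 97.0 CPM, the other controls at 66.0 to 77.1. Sesn1 in control 1 was at 28.0 CPM, the others at 20.1 to 22.6. Flcn in control 1 was at 40.9 CPM, the others at 44.8 to 47.1. Rragd in fisetin 3 was at 110.4 CPM, the others at 93.6 to 99.8. Fnip2 in fisetin 6 was at 201.9 CPM, the others at 116.6 to 137.9.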

How the results depend on the processing

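The count of genes past the adjusted threshold was 0, and it became 1 in batch 1 alone, 153 with DESeq2, 2492 with limma-voom, 16 without fisetin 5 and 6, and 2254 without control 1 and fisetin 6; leaving out 1 library gave 0 to 70, with 70 without fisetin 6. edgeR had 2608 genes and DESeq2 2817 at an unadjusted p under 0.05. Genes higher at an unadjusted p under 0.05, 1473 in the fit with batch, numbered 558 with the immune score, 691 in batch 1, 588 in batch 2, 3046 with voom and 3044 without control 1 and fisetin 6 (864 to 2402 leaving out 1 library: 954 without fisetin 1, 864 without fisetin 5 and 2402 without fisetin 6). Those lower, 1135, numbered 480, 690, 337, 3177 and 2848 in the same order and 255 on log2(TPM + 1) (704 to 2234 leaving out 1 library: 714 without fisetin 1, 745 without control 2, 704 without control 4, 743 without control 6 and 2234 without fisetin 6). Members called were 0, and 6 with voom and 6 without control 1 and fisetin 6 (0 to 0 leaving out 1 library). Members higher at an unadjusted p under 0.05, 2, numbered 4 with total count scaling, 1 with the immune score, 0 in batch 2 and 0 on log2(TPM + 1) (1 to 3 leaving out 1 library). Members lower, 5, numbered 2 with the immune score, 3 in batch 1, 0 in batch 2 and 1 on log2(TPM + 1) (4 to 7 leaving out 1 library). Positive members, 12, numbered 20 on log2(TPM + 1) (10 to 15 leaving out 1 library), a scale that raised the median of all genes by 0.05, as total count scaling did by 0.05. DESeq2 called 1 gene for the interaction (0 by edgeR). Members at an unadjusted p under 0.05 for the interaction and for batch numbered 0 to 2 each leaving out 1 library. The fits of 1 batch hold only 3 libraries of each diet. The cause of the other shifts was not tested.

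Of 30 members, 16 kept their sign in all 25 settings and 14 did not, in 59 of 750 values. Reversed log2 values were, for Tsc1, -0.00797 in batch 1, -0.00734 without fisetin 5 and 6 and -0.0212 without control 1 and fisetin 6. Rragc had -0.00497 in batch 2 and -0.0074 without control 1 and fisetin 6. Lamtor3 had -0.00393 with the immune score, -0.0125 in batch 2 and -0.028 with GC and length offsets. Rragb had -0.00779 with the immune score and -0.098 with voom, and Seh1l -0.0321 in batch 2. On log2(TPM + 1), Tsc2 had 0.0325, Rheb 0.0246, Rraga 0.0326, Lamtor5 0.0915, Flcn 0.101, Nprl2 0.00407, Nprl3 0.0228 and Wdr59 0.0651. With total count scaling, Lamtor5 had 0.0399, Flcn 0.0406, Nprl3 0.0181 and Wdr59 0.0347. With the immune score, Lamtor5 had 0.0453, Flcn 0.101, Fnip2 0.112, Nprl2 0.0153 and Wdr59 0.0624. In batch 1, Lamtor5 had 0.0843, Nprl2 0.0281 and Nprl3 0.0386. In batch 2, Flcn had 0.109 and Wdr59 0.0409. With the offsets, Lamtor5 had 0.0591, Flcn 0.0402, Nprl3 0.00579 and Wdr59 0.00383. Flcn had 0.00128 without the filter and 0.00444 without the batch term, and Lamtor5 0.0411 without fisetin 5 and 6. Leaving out 1 library, the range was, for Tsc1 -0.00958 to 0.0518, Rragb -0.0997 to 0.174, Rragc -0.0116 to 0.0282, Lamtor3 -0.000407 to 0.0317, Lamtor5 -0.0576 to 0.0381, Flcn -0.0548 to 0.0583 and Wdr59 -0.0604 to 0.0183. For the Sesn3 to Sesn1 ratio the log2 difference ran from -0.0173 to 0.151. No paired analysis was possible because the replicate numbers were given in accession order and pair nothing.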
